A study of Mus musculus with 2 samples.

Results

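The peaks described here are the sites of HIRA binding called in embryonic mouse hearts that held a simple tandem repeat with a unit of 3 to 6 bases. A peak was taken when a stretch of 24 or more bases lay wholly inside it, repeated exactly with a period of 3, 4, 5 or 6 bases and had no period of 1 or 2. Peaks with a run of 4 guanine-adenine (GA) or 4 cytosine-adenine (CA) dinucleotides on either strand were left out. This gave 913 member peaks of 6624 in the list, or 13.8% (95% Wilson interval 13.0 to 14.6%, which covers counting error only, as do all intervals below). The rule used the reference sequence alone and no measured height.

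HIRA ChIPseq was performed on wild type CD1 hearts at E12.5, with 30 hearts pooled into 1 ChIP library and 1 input library. There was no mutant, no treatment and no second pool, so no error between hearts or between precipitations can be given and no comparison between peaks was tested. Whole hearts hold cardiomyocytes, endocardial cells and other cell types, which the list does not separate. The reads were not analysed here and their depth is unknown.

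HIRA is the histone chaperone of a complex with UBN1, CABIN1 and ASF1A that loads H3.3, a variant of histone H3, independently of DNA replication. Simple tandem repeats, or microsatellites, are runs of a short unit in head to tail order. They gain and lose units by slippage during replication, so their length differs between strains and animals. CD1 mice are outbred, and the lengths given here are those of the C57BL/6J reference. Stretches with purines on one strand and pyrimidines on the other can leave the usual double helix for a triple-stranded form. The unit TTAGGG is the repeat of vertebrate telomeres, where H3.3 is placed by another chaperone, DAXX with ATRX.

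Units are named by the form that comes first in the alphabet among all rotations and both strands, so that AAG also stands for GAA and TTC. The following sequences are 1 peak for each of the 5 units with most members and for 1 further unit, AAAGC. Each has a stretch close in length to the median of its unit. They were chosen to show how the stretch sits in the peak. They are read 5′ to 3′ on the plus strand of GRCm38.p6 (mm10), and capitals mark the longest stretch.
AAG, chr1:24256628-24256826: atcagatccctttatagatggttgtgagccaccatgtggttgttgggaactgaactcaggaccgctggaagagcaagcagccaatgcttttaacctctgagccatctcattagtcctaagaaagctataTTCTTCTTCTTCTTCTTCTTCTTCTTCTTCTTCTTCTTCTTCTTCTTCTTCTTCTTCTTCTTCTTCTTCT
AAGG, chr1:187581170-187581340: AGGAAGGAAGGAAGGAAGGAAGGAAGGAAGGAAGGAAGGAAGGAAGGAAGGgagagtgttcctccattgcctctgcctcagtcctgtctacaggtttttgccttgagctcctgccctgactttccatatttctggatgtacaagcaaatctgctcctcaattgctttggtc
AAAG, chr4:32527243-32527414: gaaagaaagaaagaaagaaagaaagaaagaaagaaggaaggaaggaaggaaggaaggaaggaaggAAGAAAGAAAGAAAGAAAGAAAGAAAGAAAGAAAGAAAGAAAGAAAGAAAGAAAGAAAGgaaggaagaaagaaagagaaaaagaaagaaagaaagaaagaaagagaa
AGAGGC, chr2:80454714-80454917: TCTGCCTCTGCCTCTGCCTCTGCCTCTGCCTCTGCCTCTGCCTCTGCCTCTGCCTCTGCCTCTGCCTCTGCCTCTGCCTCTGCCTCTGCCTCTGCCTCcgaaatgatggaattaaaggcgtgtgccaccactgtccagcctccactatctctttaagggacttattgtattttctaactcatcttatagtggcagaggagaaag
AGAT, chr2:131975281-131975439: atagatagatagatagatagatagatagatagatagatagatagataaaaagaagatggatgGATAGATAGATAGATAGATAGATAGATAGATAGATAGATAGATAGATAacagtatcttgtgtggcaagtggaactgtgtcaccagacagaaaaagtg
AAAGC, chr1:31652812-31653004: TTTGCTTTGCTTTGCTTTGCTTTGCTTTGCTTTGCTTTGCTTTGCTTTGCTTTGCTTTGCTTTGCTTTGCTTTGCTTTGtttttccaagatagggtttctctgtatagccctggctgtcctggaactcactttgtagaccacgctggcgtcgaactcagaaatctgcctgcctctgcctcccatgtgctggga

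The AAG peak was intergenic, 3.94 kb from Col9a1, and the AAGG peak lay 27.4 kb from Esrrg. The AAAG peak was in intron 4 of 6 of Bach2. The AGAGGC peak was 7.09 kb from Frzb, which encodes a secreted Wnt antagonist. The AGAT peak was 14.0 kb from Rassf2 and the AAAGC peak 429 kb from Pih1d3. In 4 of these 6 peaks the capitals ran up to one end of the peak. The AAAG peak differed from these in that nearly all of it was made of purine repeats.

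Purine repeats with the unit AAG were the most frequent single kind of member. The 913 members held 86 different units, of which 17 had 10 or more members and accounted for 735 members (80.5%). AAG led with 156 members (17.1%), followed by AAGG with 95, AAAG with 90 and AGAGGC with 85. AGAT, the unit that contains GATA, had 45 members. AAAGG had 37, AAGAG 35, AGG and AGAGG 29 each, AAGGAG 28 and AAAAG 21. AGGG had 17, AGAGGG 15, AGGC and the telomere unit AACCCT 14 each, AAGGG 13 and AAAGC 12. Of the 17 units, 12 were made of purines on one strand. The exceptions were AGAGGC, the GATA-containing unit, the telomere unit, AGGC and AAAGC. Another 36 units had 1 member each.

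By unit length, 299 members had a longest stretch with a unit of 4 bases (32.7%, interval 29.8 to 35.9%). A unit of 3 bases was longest in 213 members (23.3%, 20.7 to 26.2%), 6 bases in 211 (23.1%, 20.5 to 26%) and 5 bases in 190 (20.8%, 18.3 to 23.6%). The last 3 intervals overlapped. The longest stretch was purine-only in 579 members (63.4%, 60.2 to 66.5%). The share was 86.9% for units of 3 bases, 67.6% for 4, 71.6% for 5 and 26.5% for 6, where the mixed unit AGAGGC was the most frequent. Units of A and T alone were rare, at 19 members (2.08%, 1.34 to 3.23%), while they made up 10.6% of all such stretches of the genome. Units with a CpG were found in 3 members (0.329%) and in 0.904% of the genome stretches.

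The longest stretch inside a member had a median of 57 bases, with quartiles of 43 and 77 and a range of 24 to 526. Its median was 62 bases for units of 3, 50 for 4, 60.5 for 5 and 77 for 6 bases. It filled a median of 30.7% of the peak, and 50% or more of the peak in 114 members. More than 1 stretch was present in 305 members (33.4%, 30.4 to 36.5%), and 186 (20.4%) held stretches of different units. Near the limit of the rule, 35 members had a longest stretch of 24 to 26 bases, and 38 peaks just outside it had one of 21 to 23 bases. Their median widths were 187 and 178 bases.

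**Figure D1:**
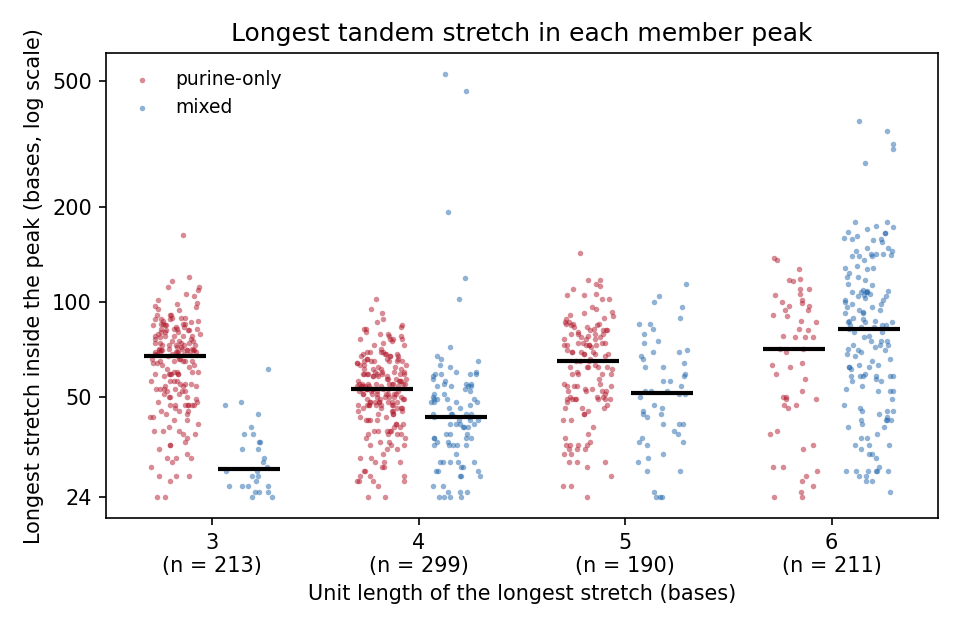
Length of the longest tandem stretch inside each of the 913 member peaks (y axis, bases, log scale) by its unit length (x axis), with purine-only units in red and mixed units in blue; each point is a peak and each bar the median of its colour. Mixed units of 3 bases were short, and the longest stretches, up to 526 bases, had mixed units of 4 and 6 bases.

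All exact stretches of the 21 placed chromosomes were located to set the members against the repeats that could have been bound. The genome held 366537 stretches of 24 or more bases with these periods, and their median length was 38 bases (quartiles 28 and 53). Of these, 1683 (0.459%, interval 0.438 to 0.482%) had 24 or more bases inside a peak, counting the 213 peaks that also held a GA or CA run. Without the latter, 1397 stretches (0.381%) lay in the 913 members. The following shares refer to all peaks, so that a unit is not lost through a GA or CA run beside it. Stretches in 1 peak are neighbours and not independent of each other.

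Purine-only stretches lay in a peak more often than mixed ones, at 0.681% (0.641 to 0.724%) against 0.299% (0.277 to 0.323%). The intervals did not overlap. Stretches with a unit of 6 bases had the highest share, 0.890% (0.805 to 0.984%), those of 3 bases 0.679% (0.614 to 0.751%), of 5 bases 0.427% (0.381 to 0.479%) and of 4 bases 0.319% (0.295 to 0.344%).

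The order of single units by this share differed from their order by members. The telomere unit AACCCT came first among the 17, with 34 of 423 stretches (8.04%, 5.81 to 11.0%). AGAGGC followed with 118 of 2565 (4.60%, 3.86 to 5.48%). These intervals did not overlap as computed. The 34 telomere stretches belong to only 14 peaks, however, so their interval is too narrow to separate the 2 units. Outside the last kilobase of the chromosomes the telomere unit had 21 of 388 stretches in a peak (5.41%, 3.57 to 8.13%), and there the intervals overlapped. AAAGC had 17 of 562 (3.02%, 1.90 to 4.79%). AGGC (1.62%), AAG (1.61%) and AAGGAG (1.58%) were close together, and the interval of AAG was 1.43 to 1.81%. AAAG (0.565%, 0.494 to 0.645%) and AAGG (0.539%, 0.461 to 0.629%) did not differ beyond their intervals. AGAT reached 0.405% (0.338 to 0.484%) and AGGG 0.275%, the lowest of the 17. Common units of the genome that gave few members lay far below these. Of 26203 AAAC stretches 9 were in a peak (0.0343%, 0.0181 to 0.0653%), and of 21948 AAAT stretches 15 (0.0683%, 0.0414 to 0.113%).

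The share rose with the length of the stretch for purine-only and mixed units alike. For purine-only stretches it was 0.270% at 24 to 31 bases, 0.404% at 32 to 47, 0.672% at 48 to 63, 1.17% at 64 to 95 and 2.03% (1.71 to 2.41%) from 96 bases. For mixed stretches the values were 0.130%, 0.233%, 0.409%, 1.11% and 6.34% (5.34 to 7.51%). Below 64 bases purine-only stretches had the higher share in each class, from 64 to 95 bases the intervals overlapped, and from 96 bases mixed stretches had the higher share. AGAGGC and the telomere unit are among the long mixed stretches. A long stretch has more places at which a peak can cover 24 of its bases, and the part of this in the rise was not tested. Within stretches of 48 or more bases the share was 11.5% (7.69 to 16.7%) for AACCCT and 7.38% (6.14 to 8.84%) for AGAGGC, which overlapped. It was 1.83% for AAG, 0.711% for AAAG and 0.377% for AGAT.

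**Figure D2:**
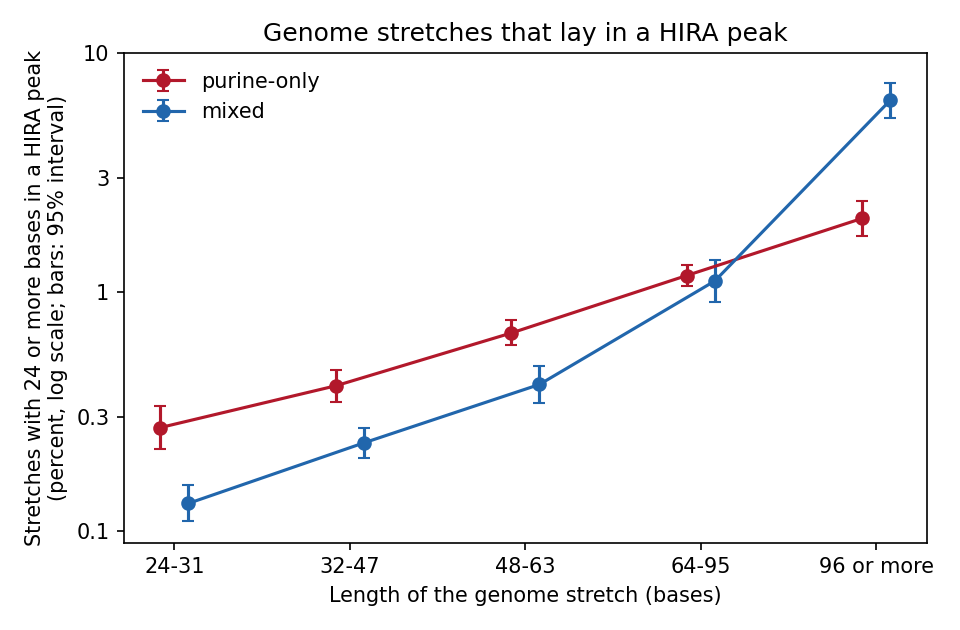
Percent of genome stretches with 24 or more bases inside a HIRA peak (y axis, log scale) by the length of the stretch in bases (x axis), for purine-only (red) and mixed (blue) units; bars are 95% Wilson intervals. Both lines rise, and they cross between the last 2 classes. Purine-only units had the higher value at 64 to 95 bases (1.17 against 1.11%) and mixed units from 96 bases (6.34 against 2.03%).

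The same rule was applied to end-to-end windows of the median member width across the chromosomes. Of 14233513 windows of 186 bases without N, 240832 met it (1.69%, interval 1.69 to 1.70%). The share of members among the peaks was 8.15 times as large. The windows differ from the peaks in that they were not required to be sequence to which reads can be aligned.

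The longest stretch sat at one end of the peak in most members. In 653 of 913 (71.5%, 68.5 to 74.4%) it reached exactly 1 of the peak's 2 edges, the left one in 311 and the right one in 342. It filled the whole peak in 6 members and lay clear of both edges in 254. A stretch that ends clear of the edges was in the middle 50% of the places it could take in 129 of 254 members (50.8%, 44.7 to 56.9%), where even placing gives 50%. Over all members with a place to choose, this share was 14.2% (12.1 to 16.6%, 129 of 907).

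**Figure D3:**
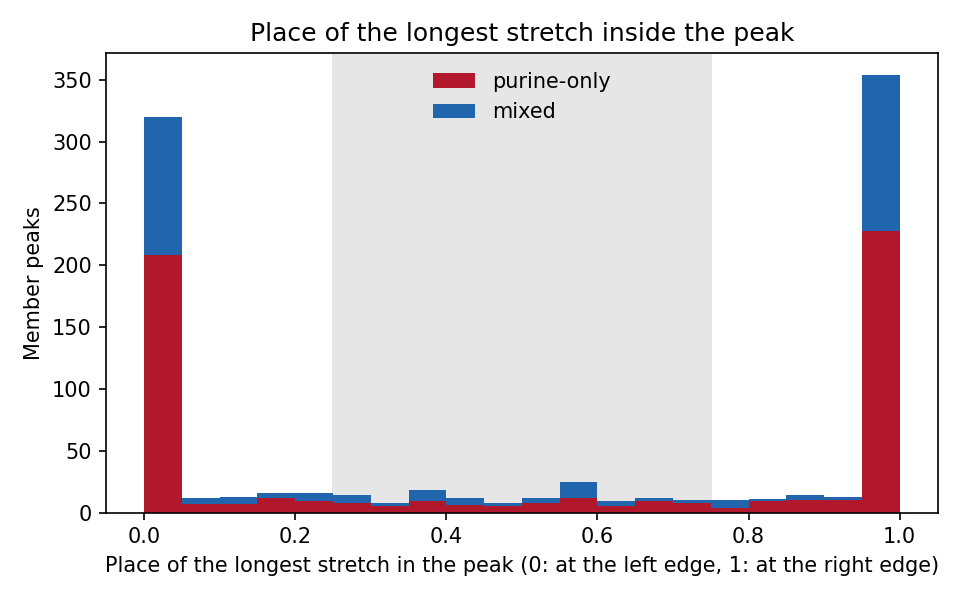
Number of member peaks (y axis) by the place of the longest stretch (x axis, 0 at the left edge and 1 at the right edge of the peak), stacked for purine-only (red) and mixed (blue) units; the grey band is the middle 50% of places. The outermost bars on each side hold most of the peaks, and those between them are low and flat.

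In peaks with the stretch at 1 edge, the repeat went on for a short way outside. The stretch in the genome had a median of 75 bases, of which 58 lay inside the peak. The part outside had a median of 13 bases (quartiles 9 and 25), and in 343 of the 653 peaks (52.5%) it was 5 to 15 bases. The median was 10 bases for units of 3 and of 4, 13 for units of 5 and 28 for units of 6 bases. Only 2 of the 653 stretches ended at the peak edge itself. On the other side of the stretch, the peak held a median of 128 bases of flank (quartiles 107 and 145). The AAG peak shown above has its stretch at the right edge and the AGAGGC peak at the left edge.

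The share at 1 edge rose with the whole length of the stretch, from 18.2% (9.51 to 32%) at 24 to 31 bases to 52.2% at 32 to 47, 68.2% at 48 to 63, 78.0% at 64 to 95 and 86.1% (80.7 to 90.1%) from 96 bases. A longer stretch has more places at which an edge can cut it, and the part of this in the rise was not tested. Purine-only and mixed stretches had 73.9% (70.2 to 77.3%) and 67.4% (62.2 to 72.2%). Among the most frequent units it was 84.7% for AGAGGC, 78.8% for AAG, 77.8% for AAAG, 66.3% for AAGG and 60% for AGAT. The peaks with dinucleotide runs did not differ from the members in this beyond the intervals. Of 663 GA peaks with a GA stretch of 24 or more bases 74.1% (70.6 to 77.2%) had it at 1 edge, as did 76.8% (72.4 to 80.7%) of 397 CA peaks without GA that held such a CA stretch.

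**Figure D4:**
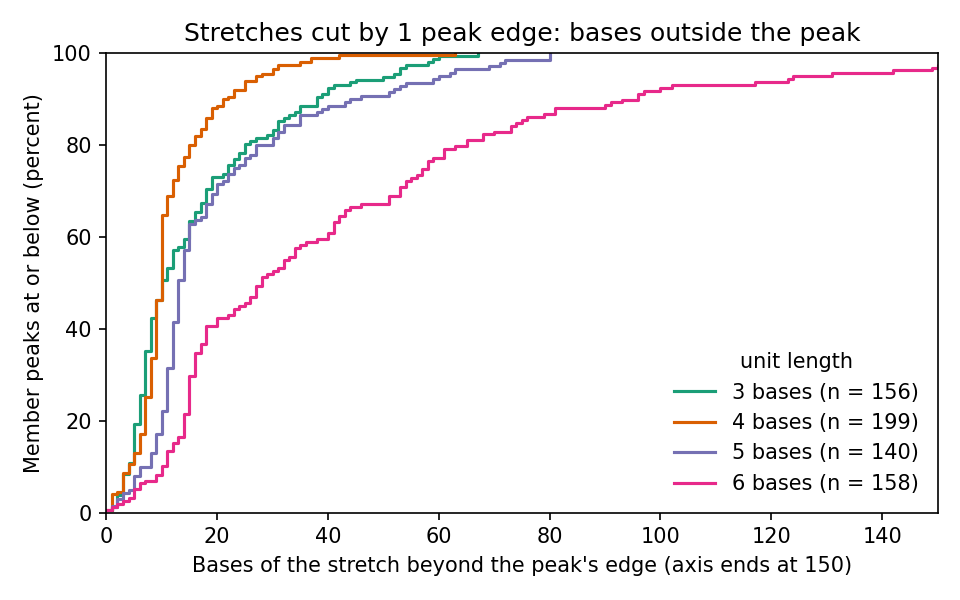
Cumulative percent of the member peaks with the longest stretch at 1 edge (y axis) by the number of bases of that stretch beyond the edge (x axis, ends at 150 bases), for each unit length. The lines for units of 3, 4 and 5 bases climb steeply near their medians of 10, 10 and 13 bases, while that for 6 bases climbs slowly to a median of 28.

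Repeated sequence affects where a read can be placed, and how reads with several possible places were treated is not stated. Words of 32 bases that occur more than once in the genome were therefore counted. Of the members, 907 (99.3%, 98.6 to 99.7%) held a multi-copy word, and in the median member 44.4% of the words were multi-copy. An exact stretch that exceeds 32 bases by its unit or more repeats its own word, so the rule largely fixed the first share. That share was 90% in GA peaks, 80.8% in CA peaks without GA and 81.8% in the remaining peaks. When words touching a stretch were left out, 808 members still had a word, and 343 of them (42.5%, 39.1 to 45.9%) had a multi-copy one. Most of these flanks were thus free of repeated words, while the stretches were not. Every word was multi-copy in 83 members (9.09%). That was the case in 5.27% of the GA peaks, 3.27% of the CA peaks without GA and 49.9% of the 3945 remaining peaks. The part of read placement in the share of stretches in peaks was not tested.

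The share of multi-copy words in a peak differed between units. In the median AGAGGC member 75% of the words were multi-copy and the median word had 328 copies, and in the median AAGGAG member it was 82.1% with 1062 copies. AAG members had 52.3% and 2 copies, and AAGG members 28.9% and 1 copy. The median word depends on how much of the peak the stretch fills, so it does not rank the units by copies in the genome. In the member with the longest AAG stretch the median word had 199984 copies, and in that with the longest AGAGGC stretch 25972. Soft-masked bases, which mark repeats in the assembly, made up 72.7% of the member bases, 53.6% in GA peaks, 46.3% in CA peaks without GA and 70.7% in the remaining peaks. The distribution differed, since 27.8% of the members and 60.9% of the remaining peaks were soft-masked throughout.

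The median width of the members was 186 bases (quartiles 171 and 205, range 158 to 1101), against 184 in GA peaks, 181 in CA peaks without GA and 185 in the remaining peaks. A width over 185 bases, the median of all peaks, was found in 51% of the members (47.8 to 54.3%), 48.3% of the GA peaks (45.3 to 51.3%), 49.6% of the remaining peaks (48 to 51.1%) and 42.4% of the CA peaks without GA (38.8 to 46.1%), whose interval alone did not overlap that of the members. Stretch length and peak width had a Spearman rank correlation of 0.16 over the 913 members, which come from 1 library. GC content had a median of 43.1% with quartiles of 36.8 and 50.7%, a wider spread than the 39.7 to 50.3% of the remaining peaks. It followed the unit, from a median of 31.4% in AGAT members and 36.0% in AAAG members to 61.3% in AGAGGC and 66.9% in AGGC members.

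The telomere repeat was examined separately, because some members with this unit lay near the ends of chromosomes. In all, 6 of the 14 members with this unit lay in the last kilobase of a chromosome. This kilobase was counted back from the last base that is not N, not from the end of the assembled chromosome. The unit was present in the last kilobase of 19 of the 21 chromosomes, of which 6 had a peak there (31.6%, interval 15.4 to 54.0%). Of 35 stretches in these end pieces 13 lay in a peak (37.1%, 23.2 to 53.7%), against 21 of 388 elsewhere (5.41%, 3.57 to 8.13%). Several of these stretches share a peak, and the 34 stretches belong to 14 peaks. The end of chromosome 1 has a stretch of 246 bases and that of chromosome 19 one of 289 bases, and neither held a peak. Among the 8 interior members, one on chromosome 6 was in the body of Ppp1r9a, which encodes a neuronal actin-binding protein. Another on the X chromosome was in the body of Nox1, and one on chromosome 14 was 9.38 kb from Nkx2-6.

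The longest stretch of the genome with these periods held 3 member peaks. It is an AGGC repeat of 2473 bases on chromosome 9 (121929474 to 121931946), 13.7 kb from Cyp8b1, the sterol 12-hydroxylase of bile acid synthesis. The peaks were 526, 465 and 192 bases wide and were filled by the repeat, and all their words were multi-copy. Of 81 stretches over 300 bases, 10 lay in a peak (12.3%, 6.85 to 21.3%). These included AGAGGC repeats of 868 bases in Pag1, of 697 bases 178 kb from Nova1 and of 378 bases 8.47 kb from the homeobox gene Evx1. An AGAGGC repeat of 589 bases in intron 5 of 9 of Psmd5, which encodes a chaperone of proteasome assembly, held the longest stretch of that unit inside a peak (348 bases). The next 7 stretches of the genome by length, from 1297 to 880 bases, held no peak.

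Among other members with the longest stretches of their unit length, counted in bases inside the peak, the AAG unit supplied all 3 of the longest with 3 bases. They were of 163, 120 and 116 bases and lay 42.5 kb from Camk2n1, 111 kb from Trib2 and 95.5 kb from Trib1. With 5 bases they were an AAGAG stretch of 143 bases in the body of Tent4a, an AAAGG stretch of 117 bases in intron 1 of 7 of Paqr5, and an AAGAG stretch of 117 bases in intron 1 of 15 of Pde3a, a phosphodiesterase that controls cyclic AMP in heart muscle. With 6 bases, an ACGCAG stretch in Mpp7 on chromosome 18 had the most bases inside a member, 373, although some AGAGGC and telomere-unit stretches that reach beyond their peaks were longer as a whole. It contains a CpG in each unit, and its peak was 835 bases wide with 93.3% multi-copy words.

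The longest stretches of single units included 83 bases of AAGG in intron 2 of 3 of Nos1ap, an adaptor of neuronal nitric oxide synthase known for common variants that alter the QT interval, and 102 bases of AAGGG in intron 1 of 5 of Kcnd2, a channel of the transient outward potassium current. An AGAT stretch of 102 bases lay 15.2 kb from Pthlh, and an AAAG stretch of 102 bases at the same distance from Bpgm. The AGG stretch of 74 bases was in intron 2 of 3 of Cmtm2b. The AGAGG stretch of 112 bases was in intron 1 of 7 of Dok6. The AGGG stretch of 95 bases lay 1.83 kb from Ptpn7. Another 4 longest stretches were intergenic and 76.7 to 305 kb from a protein-coding gene, that of AAAGC next to Stmnd1, of AAAAG (96 bases) next to Klra2, of AGAGGG (101 bases) next to Cntn3 and of AAGGAG (137 bases) next to Setbp1.

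Members were found on all 21 chromosomes, from 10.4% of the peaks on chromosome 15 (7.24 to 14.7%) to 17.1% on chromosome 11 (13.2 to 21.7%), and these intervals overlapped. The X chromosome had 43 members (10.8% of its peaks, 8.08 to 14.2%). The Y chromosome had 17 (10.8%, 6.83 to 16.6%), and 14 of them had the unit AAG. On Y, every word was multi-copy in 10 of the 14 AAG members, and in 16 of 142 elsewhere. Of the members, 45 (4.93%, 3.70 to 6.53%) were within 10 kb of any peak and 11 (1.20%) were within 10 kb of another member. The share within 10 kb of any peak was 6.21% (4.91 to 7.82%) in GA peaks and 6.4% (4.82 to 8.46%) in CA peaks without GA, both overlapping that of the members, and 9.51% (8.63 to 10.5%) in the remaining peaks.

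By midpoint, 527 members were intergenic (57.7%, 54.5 to 60.9%), 321 in introns (35.2%, 32.1 to 38.3%), 55 no more than 1 kb from a transcript start (6.02%, 4.66 to 7.76%) and 10 in other exons (1.10%, 0.596 to 2.00%). In the remaining peaks 56.8% (55.2 to 58.3%) were intergenic and 33.6% (32.2 to 35.1%) in introns, which overlapped the members. In GA peaks the shares were 50.7 and 39.9%, and in CA peaks without GA 44.7 and 46.7%. Near transcript starts the share was 8.01% (7.2 to 8.9%) in the remaining peaks, 7.9% in GA peaks and 6.26% in CA peaks without GA. Each was above the 6.02% of the members, though the interval of the remaining peaks overlapped theirs. The genome stretches lay in a peak about equally often in all classes, at 0.472% (0.443 to 0.502%) between genes, 0.436% (0.403 to 0.472%) in introns, 0.499% (0.405 to 0.615%) near starts and 0.430% (0.269 to 0.687%) in exons. Of 162 purine-only members in introns of protein-coding genes on 1 strand, 56 (34.6%, 27.7 to 42.2%) had the purines on the sense strand of the gene. Of such genome stretches in introns 38.3% did, a value inside that interval. Among the exonic members, one with a stretch of 69 AAG bases was in the last exon, 25 of 25, of Shank1, and one with 42 AAGAG bases in exon 8 of 8 of Ednrb, the endothelin receptor of neural crest cells.

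In all, 361 protein-coding genes had a member in the body or within 5 kb, which is 1.65% of 21938, and 292 had one in the body. Of the latter, 11 had more than 1. Cntn4, a neural cell adhesion gene of 1022 kb, had 3. Among those with a pair were Ets1 and Rbpj, a transcription factor and the nuclear effector of Notch signalling, Utrn, the autosomal homologue of dystrophin, and Col12a1. The sequences below are 3 members at protein-coding transcript starts (Npr3, Igf1 and Smarca2) and the 2 members in or near genes of the cardiac list (Myl7 and Epha3), shown so that the repeat can be seen beside its flank. Capitals mark the longest stretch.
Npr3, chr15:11907452-11907625: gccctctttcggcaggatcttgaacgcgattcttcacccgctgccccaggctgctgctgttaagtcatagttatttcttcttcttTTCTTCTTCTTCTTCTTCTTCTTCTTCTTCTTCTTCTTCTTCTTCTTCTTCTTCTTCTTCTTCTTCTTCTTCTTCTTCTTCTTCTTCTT
Igf1, chr10:87860156-87860318: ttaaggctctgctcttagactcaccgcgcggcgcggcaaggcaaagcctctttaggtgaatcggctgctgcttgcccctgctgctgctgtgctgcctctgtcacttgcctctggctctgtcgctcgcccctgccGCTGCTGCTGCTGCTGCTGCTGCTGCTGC
Smarca2, chr19:26729779-26729940: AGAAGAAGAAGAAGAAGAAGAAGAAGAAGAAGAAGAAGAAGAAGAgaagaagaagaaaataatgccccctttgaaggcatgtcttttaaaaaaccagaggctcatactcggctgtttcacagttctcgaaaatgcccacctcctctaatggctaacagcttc
Myl7, chr11:5891476-5891684: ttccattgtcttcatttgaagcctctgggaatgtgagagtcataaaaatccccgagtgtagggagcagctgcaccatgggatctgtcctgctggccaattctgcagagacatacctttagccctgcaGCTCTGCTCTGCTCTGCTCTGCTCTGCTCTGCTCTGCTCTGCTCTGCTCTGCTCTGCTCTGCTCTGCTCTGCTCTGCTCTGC
Epha3, chr16:63833401-63833647: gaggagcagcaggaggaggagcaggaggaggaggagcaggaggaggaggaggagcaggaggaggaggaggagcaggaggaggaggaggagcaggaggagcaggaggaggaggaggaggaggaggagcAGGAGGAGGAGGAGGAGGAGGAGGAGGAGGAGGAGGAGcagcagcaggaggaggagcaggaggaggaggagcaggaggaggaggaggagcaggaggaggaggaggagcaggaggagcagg

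Members lay within 1 kb of a transcript start of 31 protein-coding genes, for 15 of them at the outermost start and for the rest at an inner one. Npr3 encodes the clearance receptor of natriuretic peptides. Its peak, with 89 bases of AAG, was centred 252 bases before the start. Of the 32851 RefSeq promoter windows of 300 bases, 5 overlapped a member and 2 of these, that of Npr3 among them, also held a stretch of the rule. A stretch was present in 201 of all these windows (0.612%, 0.533 to 0.702%). The Igf1 peak, with 29 bases of AGC, was centred 207 bases after an inner start of this growth factor gene. Its flank was nearly free of multi-copy words (2.27% of all words), as in Lmna, the lamin A/C gene, where the peak (26 bases of AAAAG, 899 bases after an inner start) had none.

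Smarca2, the BRM ATPase of the SWI/SNF remodelling complex, had a peak with 45 bases of AAG in intron 27 of 32, 139 bases before an inner start. Mfn1, which fuses mitochondria, had 62 bases of AAG, and Utrn 87 bases of AAG and, in a separate peak, 26 of AAC. The nuclear receptor gene Nr2f1 had 26 bases of AGAGG centred 657 bases before its start. Atraid and Slc5a6, which start close together on opposite strands, shared a peak with 65 bases of AGAT, centred 275 bases after a start of the first and 136 before that of the second. Grik5 and Zfp574 shared a peak with 28 bases of ACC and a GC content of 74.2%. AAGG stretches of 31 to 68 bases were near starts of Ccdc190, Chil6, Ido2, Cyfip2, Vash1, Nek10 and Rps6ka2, and AAAG stretches near those of Rgs8, Ccdc124 and Hmgxb4. Others were Ildr2 (AAAC), Entpd8 (AGAT), Lypd6b (AGAGGC), Vmn2r4 (ACAGC), Itgal (AAAAG), Tinag (AGAGG), Sfi1 (AGGGC), Lims2 (AAT) and Mpp7.

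Cardiac genes were examined because the study concerned direct targets of HIRA in the heart. Of a list of 52 genes of the sarcomere, cardiac transcription, ion handling, the HIRA complex and loci assayed by the study, 22 had any peak in the body or within 5 kb (42.3%, interval 29.9 to 55.8%), against 11.1% of all protein-coding genes. The list includes loci that the study chose to assay, and is not independent of it. Gene length, which sets how much sequence can hold a peak, was not matched between the list and all genes. Of the 52 genes 2 had a member (3.85%, interval 1.06 to 13.0%), and the value for all protein-coding genes, 1.65%, lies inside this interval. Epha3, a receptor of the atrioventricular cushions, had its member in intron 2 of 16, where an AGG stretch of 38 bases was surrounded by further AGG runs broken by AGC, as the sequence shows. Of its words 100% were multi-copy and its GC content was 66.8%. Myl7, the atrial regulatory myosin light chain, had one 4.95 kb past the end of the gene, with 82 bases of AGAGC at its right edge and 30.3% multi-copy words. The troponin, myosin heavy chain and core transcription factor genes of the list had no member within 5 kb. The HIRA site that the paper ties to Tnni2 and Tnnt3 lies farther than this from both genes. The paper reports a GAGA motif in it, and the rule left out peaks with a GA run. The absence at the troponin genes therefore says nothing about that site.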

How the data were processed

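The authors made 1 HIRA ChIP library (antibody WC15, EGS and formaldehyde cross-link) and 1 input library from 30 pooled hearts, aligned the reads with bowtie2 to mm10, removed poor quality and duplicate reads, and called peaks with MACS in Strand NGS. Per the file headers the p-value cutoff was 0.001 and the fragment length 200 bases. The cutoff in the methods is stricter, and which of them applies is not known. The deposited list gives chromosome, start and end of each peak, with no height or p-value, so each peak counted once.

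Positions (counted from 1 here) were compared with GRCm38.p6, which is mm10. Of 6624 peaks, 0 passed a chromosome end and 0 held an N. Stretches were located as maximal runs with an exact period, and the longest in a peak, leftmost in ties, gave its unit. Genome stretches counted as in a peak with 24 or more bases inside one. Whole stretches were extended along the chromosome at the same period. Words of 32 bases were counted on both strands of the 21 placed chromosomes. Genes were those of GENCODE M21, with RefSeq as an alternative. Genes were given the members in their body or up to 5 kb away. Intron numbers refer to the transcript with the greatest exon length. Promoter sequences were those of RefSeq (GRCm38.p6). Python 3.11.15, numpy 2.4.6, pandas 2.3.3 and numba 0.67.0 were used, and the scan was tested on simulated sequence.

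With 1 library there are no replicates, and no test between peaks was made. Shares carry 95% Wilson intervals. Units with 10 or more members, the telomere and GATA units, the 3 longest stretches of each unit length, the longest of each named unit, and genes at starts, in the cardiac list or holding these peaks were named. Other genes, sequences and peaks named were chosen after their values were seen, as were the edge, strand and chromosome end measures. The members and lists were chosen with earlier results of these data known. The alternatives tried were other stretch limits, 1 break of the period, other treatment of GA and CA peaks, wider peaks, autosomes, merged peaks and other gene definitions. Some sequences, and 1 gene with a member at its start, are not reported here.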

Additional observations from a re-analysis of the deposited data

How the results depend on the processing

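Of 149 values under other settings, 121 stayed within the interval of the reported value, or within 1.5 times of a count. Stretches of 18 or more bases gave 15.1% of peaks as members, 71.8% soft-masked bases, 97.3% with a multi-copy word, 3.01% of windows and 0.323% of genome stretches in a peak. Stretches of 30 or more gave 12.7%, 73.7%, 100%, 1.18% and 0.559%. With GA and CA peaks kept, members were 17.0% of peaks, 36.8% had a unit of 4 bases, 73.2% of bases were soft-masked and 17.1% had the stretch in the middle 50% of places; without those peaks 0.381% of genome stretches were in a peak. The wider peaks alone held 466 members and 194 protein-coding genes by construction, with a median width of 204 bases, 28.5% with a unit of 4 bases and 73.1% soft-masked. Autosomes gave 71.9% soft-masked. RefSeq genes gave 3.83% near starts and 2.30% in exons, and a distance of 2 kb gave 11.4% near starts. Without words touching the stretches 42.5% had a multi-copy word. Gene bodies alone held a member in 1 cardiac gene. Any overlap put 0.507% of genome stretches in a peak, and windows of the median width of all peaks met the rule in 1.68%. Beyond construction, the cause was not tested. No paired analysis was possible because the list comes from 1 ChIP library. The read depth is unknown, which limits what can be said of stretches without a peak.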
